A study of Salmo salar with 16 samples.

Results

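Genes of steroid synthesis were compared between the ovary, liver, brain and pituitary gland of the Atlantic salmon, Salmo salar. They were taken by product name from the annotation deposited with the counts, as every gene named as a steroidogenic acute regulatory protein, a side-chain cleavage enzyme, a steroid P450 of families 11, 17, 19 or 21, an aromatase, a beta-hydroxysteroid dehydrogenase or a 3-oxo-5-alpha-steroid dehydrogenase, plus the symbol s5a2. The rule itself used no measured value, but it was set with earlier results of these data known. It gave 22 of the 81574 genes of the count table. Of these 22 genes, 16 lay on chromosomes of the assembly ICSASG_v2 and 6 on unplaced scaffolds.

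The libraries were made from mRNA of untreated, sexually immature females of a farmed stock of North American origin, with 4 libraries each of ovary, liver, mid brain (called brain here) and pituitary gland. The methods name 4 animals, so the tissues shared fish, but the labels do not tie a replicate number to a fish. Whole tissue was sequenced, so fewer cells of a type and less RNA per cell cannot be told apart.

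Steroid hormones are made from cholesterol. StAR carries cholesterol into the mitochondrion, where the side-chain cleavage enzyme (P450scc, CYP11A) makes pregnenolone. The 17-alpha-hydroxylase/17,20 lyase (CYP17) and 3 beta-hydroxysteroid dehydrogenase (3 beta-HSD) lead on to androgens, and aromatase (CYP19) turns androgens into oestrogens. In the fish ovary theca cells supply androgens to granulosa cells, which hold the gonadal aromatase. Teleosts keep a separate brain aromatase gene, known from other teleosts to be active in radial glial cells. The steroid 21-hydroxylase and CYP11B belong to corticosteroid synthesis, which takes place in the interrenal tissue of the head kidney, and CYP11B also to the synthesis of 11-oxygenated androgens. The head kidney was not among the tissues studied.

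The totals were 25.4 to 30.6 M counts in the ovary, 20.6 to 23.2 M in the liver, 23.2 to 51.9 M in the brain and 24.8 to 28.9 M in the pituitary gland. Levels are given as CPM, the counts scaled to a common library size after TMM correction, which takes account of a few genes holding many of the reads, or as FPKM where genes of different length are set side by side. Up to 3 counts in a library were set as the floor of detection, which came to a mean of 0.0734 CPM in the ovary, 0.264 CPM in the liver, 0.0775 CPM in brain and 0.111 CPM in pituitary gland. The liver, pituitary gland and brain held their defining genes. Summed over 10 plasma protein genes the liver libraries had 125059 to 143418 CPM, and over 13 hormone genes the pituitary libraries had 369473 to 450788 CPM. The 4 brain libraries were unlike each other, with 2038 to 9544 CPM over 37 neuron genes and 1065 to 3721 CPM over 10 genes of radial glia and astroglia. Brain replicate 2 was also sequenced most deeply, with 51.9 M counts.

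Of the 22 steroid synthesis genes, 12 had enough counts to be tested, 3 had counts but too few for the test, and 7 had no count in any library. Over all genes, 34077 had no count. A gene was called between 2 tissues at an adjusted p of at most 0.001 (edgeR's quasi-likelihood test, Benjamini-Hochberg over the 37043 genes tested) with a log2 fold change of 2 or more in either direction, the limits of the study's methods. Fold changes are log2, the first tissue over the second, with standard errors (SE). A gene that is high in a single tissue can pass the filter on low counts through that tissue alone, so the shares of tested genes below describe these 12 genes and not all 22.

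Against the liver 7 of the 12 genes were called higher in the ovary and 1 was called lower, beside 40.8% of all genes tested called, 22.3% higher and 18.5% lower. Against the brain 8 were called higher in the ovary and 1 lower, beside 46.6% of all genes, 19% higher and 27.6% lower. Against the pituitary gland 8 were again called higher in the ovary and 1 lower, beside 41.2%, 18.9% higher and 22.3% lower. The median log2 fold change of the 12 genes was 3.83 in ovary over liver, 5.01 in ovary over brain and 3.81 in ovary over pituitary gland, and the medians over all genes tested were 0.38, -0.20 and 0.04. The 3 comparisons share the ovary libraries. Called higher in the ovary than in each of the other 3 tissues were 7 of the 12 genes, beside 11.1% of all genes tested. These 7 were StAR, P450scc, CYP17, 3 beta-HSD, a pair of aromatase-like genes and a 5-alpha-reductase 2-like gene. All but the last are named for steps of the route from cholesterol to oestrogen given above.

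**Figure D1:**
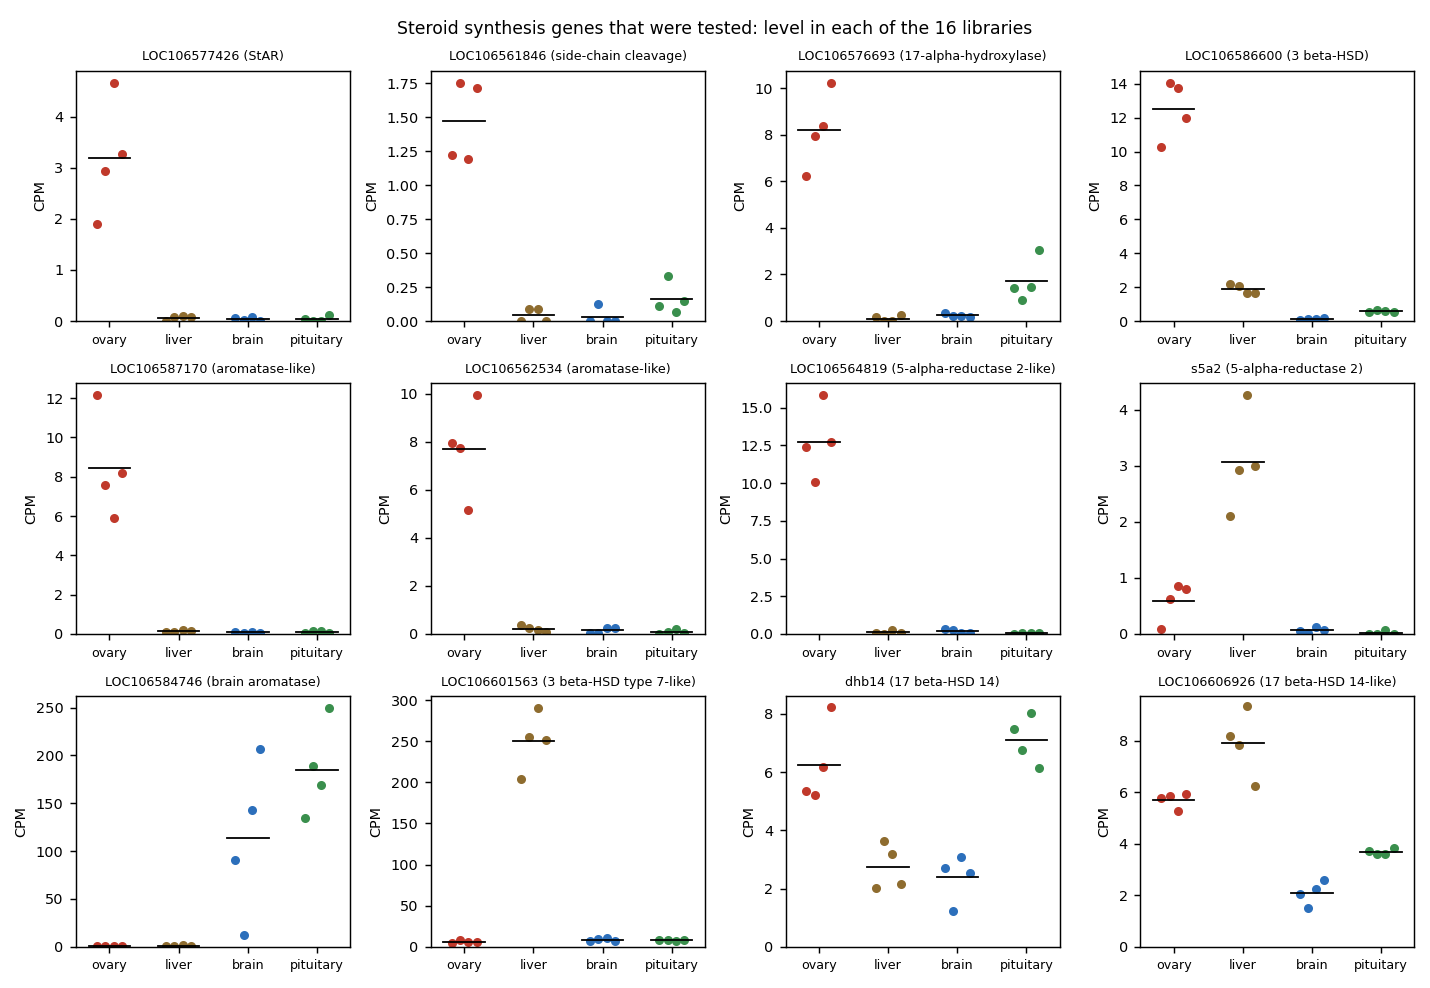
Level of the 12 tested steroid synthesis genes in CPM (vertical axes, each from 0) in the libraries of ovary, liver, brain and pituitary gland. Each point is a library and each line the mean of 4. In 7 panels all ovary libraries lie above all others, brain aromatase is high in brain and pituitary gland, and 3 beta-HSD type 7-like is high in the liver.

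The entry of cholesterol into the route is made by StAR. The annotation holds 5 StAR genes, and 1 of them carried most of the counts. LOC106577426 (chr18:38277828-38291829) had 82, 124, 176 and 133 counts in the ovary libraries, against 0, 1, 1 and 1 in the liver, 2, 2, 3 and 0 in the brain and 1, 0, 0 and 3 in the pituitary gland. No library outside the ovary went above the floor of 3 counts. The ovary mean was 3.19 ± 1.15 CPM (SD, n = 4). Its log2 fold change was 5.52 over liver (SE 0.78, adjusted p = 7.89e-06), 6.12 over brain (SE 0.71, adjusted p = 7.52e-07) and 6.29 over pituitary gland (SE 0.75, adjusted p = 1.13e-06). With so few counts outside the ovary these sizes depend on the prior count of the fit.

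The other StAR genes were near or at the floor. LOC100136492 (chr24:7147680-7152018) had 20, 6, 9 and 13 counts in the ovary, 0 in each liver library, 0, 9, 6 and 1 in the brain and 1, 0, 0 and 0 in the pituitary gland, 65 in all, and did not pass the filter. Its ovary and brain libraries overlapped in counts. LOC106580600 on chromosome 20 had 39 counts over the 16 libraries, with 2, 5, 1 and 1 in the ovary, 3, 2, 2 and 7 in the liver, 0, 11, 1 and 3 in the brain and 0, 0, 0 and 1 in the pituitary gland. LOC106594977 and LOC106592408, short models on unplaced scaffolds, had no count.

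The side-chain cleavage enzyme, which makes the first steroid of the route, was the lowest of the ovary genes. LOC106561846 (chr10:115047494-115088054) had 53, 74, 45 and 70 counts in the ovary, against 0, 1, 1 and 0 in the liver, 0, 9, 0 and 0 in the brain and 3, 8, 2 and 4 in the pituitary gland. Its mean was 1.47 ± 0.306 CPM in the ovary and 0.163 CPM in the pituitary gland (n = 4 each), where every library held some counts. In the ovary its log2 fold change was 4.94 over liver (SE 0.97, adjusted p = 0.000234), 4.97 over brain (SE 0.79, adjusted p = 2.6e-05) and 3.17 over pituitary gland (SE 0.72, adjusted p = 0.000819). The call against the pituitary gland lay close to the limit. It was lost in 12 of 16 fits that left out a library, with an adjusted p up to 0.00496, while the log2 fold change stayed between 2.91 and 3.74. Without brain replicate 2, which held all brain counts, the fitted value over brain was 8.37, a size that depends on the prior count. The call against the liver was lost without liver replicate 1 (adjusted p = 0.00135) or liver replicate 4 (adjusted p = 0.00141).

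CYP17, which makes the 17-hydroxylated steroids and the androgens, was high in the ovary and measurable in the pituitary gland. LOC106576693 (chr18:13078123-13081953) stood at 6.23, 7.95, 8.36 and 10.2 CPM in the ovary libraries, 0.184, 0, 0 and 0.250 CPM in the liver, 0.354, 0.207, 0.236 and 0.183 CPM in brain and 1.4, 0.906, 1.44 and 3.04 CPM in the pituitary gland. The pituitary libraries lay below all ovary libraries and above all brain and liver libraries. They rested on 38, 22, 43 and 83 counts. The pituitary mean was 20.7% of the ovary mean. The log2 fold change was 2.27 in ovary over pituitary gland (SE 0.44, adjusted p = 0.000198), 6.17 in ovary over liver (SE 0.62, adjusted p = 1.53e-07) and 5.05 in ovary over brain (SE 0.51, adjusted p = 1.54e-07). It was also called lower in the liver (-3.91, SE 0.63, adjusted p = 4.83e-05) and in the brain (-2.79, SE 0.48, adjusted p = 0.000168) than in the pituitary gland. The call of ovary over pituitary gland was lost without pituitary replicate 1 (adjusted p = 0.00123), 2 (0.00109) or 3 (0.00119).

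Beside this pituitary level stand those of genes with a high level in the ovary. LOC106564819, the 5-alpha-reductase 2-like gene, had a pituitary mean of 0.218% of its ovary mean, StAR 1.15%, P450scc 11.1%, 3 beta-HSD 4.51% and the aromatase-like genes 1.10% (LOC106587170) and 1.04% (LOC106562534). The CYP17 share was the highest of the 7 genes. In pituitary replicate 4, where CYP17 stood at 3.04 CPM, LOC106564819 had 1 count. LOC106592366 and LOC106595699, a pair of CYP17-like models on unplaced scaffolds, had no count in any library.

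The 3 beta-HSD gene, whose product turns pregnenolone and DHEA into progesterone and androstenedione, followed the order ovary, liver, pituitary gland, brain. LOC106586600 (chr25:31222404-31224964) stood at 10.3, 14.1, 13.7 and 12.0 CPM in the ovary, 2.20, 2.07, 1.63 and 1.67 CPM in the liver, 0.0591, 0.0967, 0.118 and 0.152 CPM in brain and 0.516, 0.659, 0.570 and 0.514 CPM in the pituitary gland. No library of one tissue overlapped with those of another. Its log2 fold change was 2.72 in ovary over liver (SE 0.23, adjusted p = 1.41e-08), 6.84 in ovary over brain (SE 0.28, adjusted p = 5.58e-12) and 4.46 in ovary over pituitary gland (SE 0.24, adjusted p = 1.31e-10). It was 4.12 in liver over brain (SE 0.27, adjusted p = 1.74e-09) and -2.38 in brain over pituitary gland (SE 0.27, adjusted p = 2.97e-06), both called. In liver over pituitary gland the value of 1.74 (SE 0.24, adjusted p = 7.94e-06) passed the p limit and not the fold limit. The brain libraries held only 2 to 7 counts each.

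Aromatase, the enzyme of oestrogen synthesis, was represented in the ovary by a pair of genes at like levels. LOC106587170 (chr26:11435593-11447594) stood at 12.1, 7.57, 5.89 and 8.17 CPM in the ovary, and the highest library of any other tissue had 4 counts. LOC106562534 (chr11:34220559-34226148) stood at 7.96, 7.74, 5.15 and 9.94 CPM in the ovary, with at most 9 counts in a library of another tissue. Every ovary library lay above every other library for both genes. For LOC106587170 the log2 fold change was 5.96 over liver (SE 0.51, adjusted p = 2.22e-08), 6.78 over brain (SE 0.49, adjusted p = 2.69e-09) and 6.45 over pituitary gland (SE 0.49, adjusted p = 5.98e-09). For LOC106562534 it was 5.10 over liver (SE 0.72, adjusted p = 8.29e-06), 5.83 over brain (SE 0.70, adjusted p = 1.11e-06) and 6.48 over pituitary gland (SE 0.75, adjusted p = 8.24e-07). Per length, the ratio of LOC106587170 to LOC106562534 was 1.70, 1.09, 1.28 and 0.919 in ovary replicates 1 to 4, so neither gene was the higher in all ovary libraries. Reads that matched both genes equally would not have been counted for either.

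The 5-alpha-reductase 2 genes, whose products reduce testosterone to dihydrotestosterone, differed in tissue. LOC106564819 (chr12:27677085-27689599) stood at 12.4, 10.1, 15.8 and 12.7 CPM in the ovary, against 1, 0, 3 and 1 counts in the liver, 10, 17, 3 and 1 counts in the brain and 0, 1, 1 and 1 counts in the pituitary gland. With a mean of 12.8 ± 2.36 CPM it was the highest of the steroid synthesis genes in the ovary by CPM, within the spread of 3 beta-HSD (12.5 ± 1.75 CPM). It was called against each tissue, with a log2 fold change of 6.80 over liver (SE 0.62, adjusted p = 4.54e-08), 6.21 over brain (SE 0.53, adjusted p = 2.08e-08) and 8.65 over pituitary gland (SE 0.66, adjusted p = 6.45e-09).

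The second gene, s5a2 (chr2:40862523-40872948), had its highest level in the liver. Its libraries held 4, 26, 32 and 33 counts in the ovary, 23, 34, 47 and 36 in the liver, 2, 1, 4 and 2 in the brain and 0, 0, 2 and 0 in the pituitary gland. Means were 0.592 ± 0.348 CPM in the ovary and 3.08 ± 0.886 CPM in the liver, and the libraries did not overlap in CPM. The difference of ovary to liver was not called (-2.37, SE 0.62, adjusted p = 0.00255). It passed both limits with DESeq2's Wald test (-2.56, adjusted p = 6.29e-05), with only these tissues in the fit (-2.65, adjusted p = 0.000404) and with the replicate block (-2.54, adjusted p = 0.000827). Other settings weakened it. Over the alternatives other than leaving out a library, the value ran from -2.65 to -0.88, with an edgeR adjusted p up to 0.191. Against the liver, LOC106564819 thus was called higher in the ovary, while every ovary library of s5a2 lay below its liver libraries in TMM-scaled CPM, without a call. The liver level of s5a2 was called higher than that of brain (5.65, SE 0.77, adjusted p = 7.2e-06) and pituitary gland (7.11, SE 0.90, adjusted p = 3.99e-06), as was the ovary level over brain (3.27, SE 0.74, adjusted p = 0.000702) and pituitary gland (4.74, SE 0.91, adjusted p = 0.000177). The call over brain was lost in 10 of 16 fits that left out a library, with an adjusted p up to 0.0026. Without pituitary replicate 3, the 1 pituitary library with counts, the ovary over pituitary value was 7.20, a fitted size that depends on the prior count. Per length, the ratio of LOC106564819 to s5a2 was 84.2, 10.3, 11.7 and 9.85 in the ovary libraries and 0.0273, 0, 0.0401 and 0.0174 in the liver libraries. A long non-coding RNA gene overlaps s5a2 on the opposite strand, with 0 exon bases in common.

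**Figure D2:**
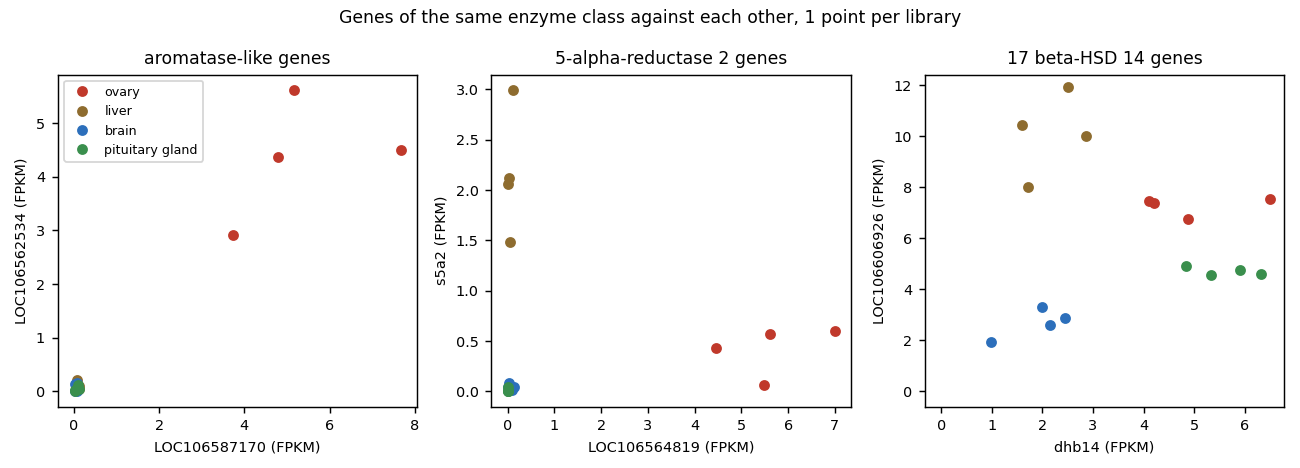
FPKM of genes of the same enzyme class against each other, with 1 point per library in ovary, liver, brain and pituitary gland. The aromatase-like genes are both high in the 4 ovary libraries, the 5-alpha-reductase genes separate ovary along LOC106564819 from liver along s5a2, and the 17 beta-HSD 14 genes are present in every library.

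The 7 genes called in the ovary were not highest in the same libraries. This is a description, since the genes were picked by their ovary level. Their summed level was 26.4, 25.7, 26.6 and 28.5 FPKM in ovary replicates 1 to 4, a coefficient of variation (CV) of 4.45%, where summing over genes by itself lowers the CV. Single genes had CVs of 14% to 35.9%, beside a median of 11.8% over 24604 genes with at least 1 CPM in the ovary. That median was not matched for level, and low counts raise the CV by themselves. Ovary replicate 1 held the highest level of LOC106587170, at 1.44 times the ovary mean, and the lowest of StAR, at 0.593 times. In ovary replicate 3 StAR was at 1.46 times its mean and both aromatase-like genes were at their lowest, 0.698 and 0.669 times.

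By FPKM the order in the ovary among these 7 genes was 3 beta-HSD (5.74), LOC106564819 (5.64), LOC106587170 (5.34), LOC106562534 (4.36), CYP17 (2.79), StAR (2.21) and P450scc (0.750). Neighbours in this order overlapped in their libraries, except that all P450scc libraries lay below those of StAR. Among all genes tested these means stood at the percentiles 69.2, 68.8, 68.0, 64.7, 58.2, 55.2 and 41.6 of the ovary. The transcripts of these 7 genes were thus of moderate or low abundance in the whole ovary. The granulosa list had 26.5 to 29.3 CPM over 7 genes in the ovary, against 4.17 to 13.9 CPM in the liver, 1.51 to 41.4 CPM in the brain and 12.5 to 26.0 CPM in the pituitary gland. The oocyte list had 3989 to 4875 CPM over 56 genes in the ovary and 20892 to 24115 CPM in the liver, which in fish also makes egg coat proteins, against at most 31.5 CPM in a brain or pituitary library. Of its 25 tested genes 22 were called higher in ovary over liver and 2 lower.

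**Figure D3:**
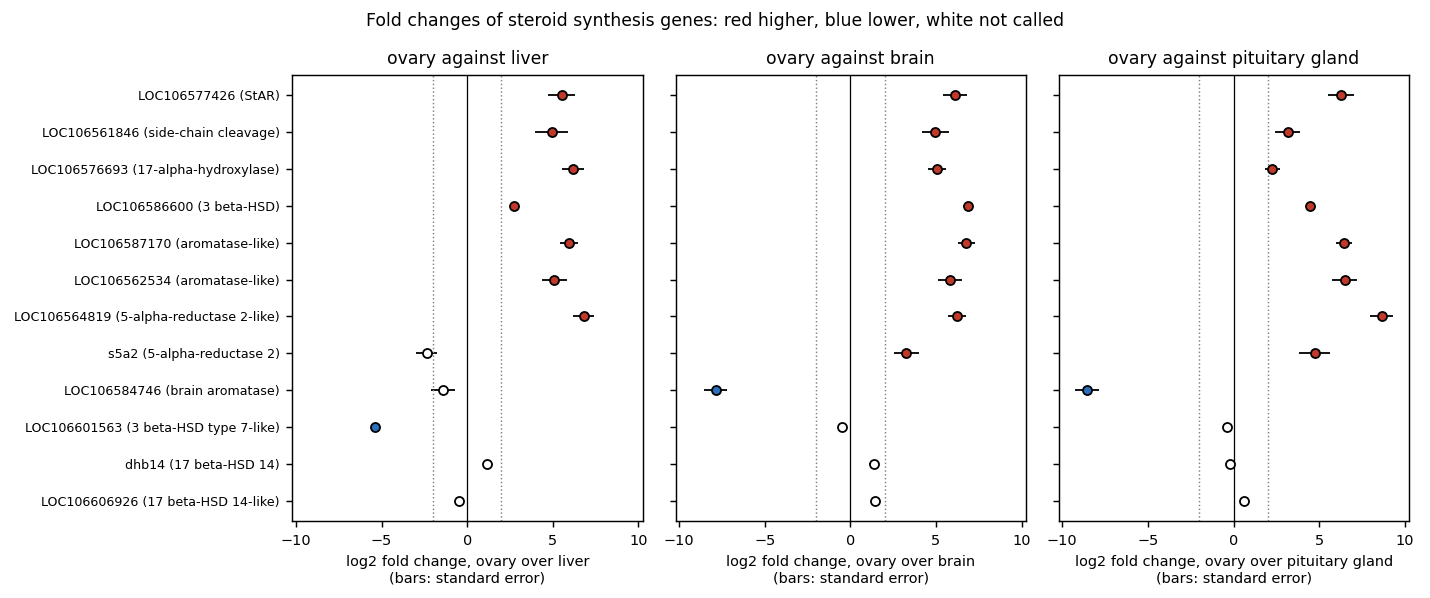
Log2 fold changes of the 12 tested genes in ovary over liver, brain and pituitary gland, with standard errors. Red points were called higher in the ovary, blue points lower and white points were not called, and dotted lines mark the fold limit of 2. The upper 7 genes are called higher in all panels, while brain aromatase is called lower against brain and pituitary gland.

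Brain aromatase, the enzyme that makes oestrogen in neural tissue, had the opposite pattern and was called lower in the ovary than in the brain and the pituitary gland. LOC106584746 (chr23:44296624-44312345) stood at 0.392, 0.546, 0.584 and 0.417 CPM in the ovary, 1.10, 1.29, 1.54 and 1.25 CPM in the liver, 90.4, 12.6, 143 and 207 CPM in brain and 134, 189, 169 and 249 CPM in the pituitary gland. The log2 fold change of ovary was -7.86 over brain (SE 0.68, adjusted p = 2.58e-08) and -8.57 over pituitary gland (SE 0.70, adjusted p = 1.47e-08). That of liver was -6.44 over brain (SE 0.66, adjusted p = 2.95e-07) and -7.15 over pituitary gland (SE 0.68, adjusted p = 1.42e-07). Ovary and liver libraries did not overlap in CPM, but their difference was not called (-1.41, SE 0.68, adjusted p = 0.0703). Its sign turned with plain library totals (0.06).

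The brain and pituitary levels of brain aromatase could not be told apart by the test (log2 fold change -0.71, SE 0.49, adjusted p = 0.236). Means were 113 ± 82.3 CPM in brain and 185 ± 48.3 CPM in the pituitary gland (SD, n = 4 each), and the libraries overlapped. Brain replicate 2 was the lowest, with 910 counts in the deepest library. Without it the brain mean was 147 ± 58.3 CPM (n = 3). Leaving out any library in turn moved the log2 fold change between -1.18 and -0.34. Relative to all genes tested the mean FPKM was at percentile 97.2 in the brain (42.0 FPKM) and 98.5 in the pituitary gland (68.7 FPKM), so that it was the most abundant steroid synthesis transcript of both tissues. The CV between the brain libraries was 72.6%, beside a median of 29.0% over genes of the brain.

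The marker genes of cell types moved between the same brain libraries. The radial glia and astroglia list stood at 3721, 3471, 2262 and 1065 CPM and the neuron list at 7453, 9544, 5268 and 2038 CPM in brain replicates 1 to 4. Brain replicate 4 had the highest aromatase of the brain and the lowest level of both lists. In the pituitary gland, where aromatase reached 249 CPM, the glia list stood at 85.8 to 128 CPM and the neuron list at 106 to 112 CPM. The gene for the transcription factor FOXL2 (LOC101448029), known from other fish to act on aromatase genes, had 1.33, 0.373, 33.2 and 25.4 CPM in brain replicates 1 to 4. Brain replicates 3 and 4, with the higher aromatase, were also those with the higher FOXL2. FOXL2 was higher in replicate 3 than 4 and aromatase in 4 than 3, while both were higher in replicate 1 than 2. The brain libraries split in the same way over all genes with enough counts. Their mean chi-square per gene, lower where libraries are more alike, was 112 between replicates 1 and 2 and 90.7 between 3 and 4. It was 270 to 541 for the other pairs of brain libraries. Between the tissues the FOXL2 mean was 15.1 CPM in brain and 10.3 CPM in the pituitary gland. The aromatase mean was 113 and 185 CPM, and neither difference was called. A link of FOXL2 to the aromatase level was not tested. The part of the makeup of these samples in the aromatase level was not tested. The pituitary hormone genes summed to 211 to 558 CPM in the brain libraries, at most 0.137% of the mean pituitary level. The ovary had 450 to 630 CPM and the liver 414 to 704 CPM, so this level was not particular to the brain.

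**Figure D4:**
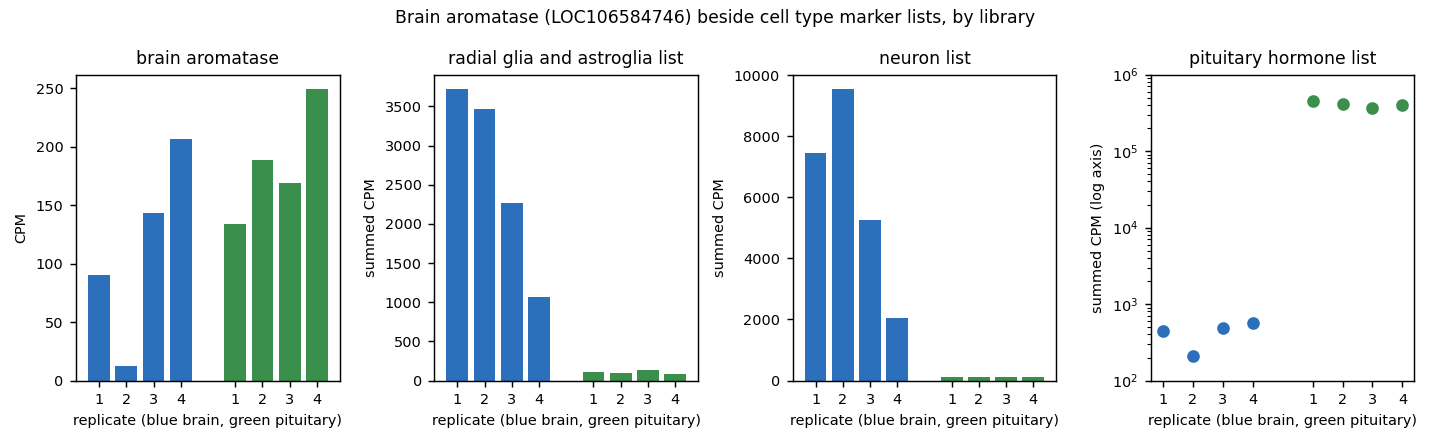
Brain aromatase in CPM and the summed CPM of 3 marker lists in the 4 brain and 4 pituitary libraries, the hormone list on a log axis. Brain aromatase runs between 12.6 and 207 CPM in the brain, the glia and neuron lists are lowest in brain replicate 4, and the hormone list is 211 to 558 CPM in brain against at least 369473 CPM in pituitary gland.

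The liver was marked by 3 beta-HSD type 7-like, whose mammalian counterpart works in bile acid synthesis and not in hormone synthesis. LOC106601563 (chr3:74822026-74830632) stood at 4.15, 7.95, 5.89 and 5.96 CPM in the ovary, against 203, 255, 290 and 251 CPM in the liver, 6.82, 8.91, 10.9 and 7.61 CPM in brain and 7.88, 8.11, 7.28 and 8.36 CPM in the pituitary gland. Every liver library lay far above the rest. In the test the log2 fold change was -5.38 in ovary over liver (SE 0.22, adjusted p = 4.54e-12), 4.87 in liver over brain (SE 0.21, adjusted p = 2.03e-11) and 4.98 in liver over pituitary gland (SE 0.21, adjusted p = 1.94e-11). Among ovary, brain and pituitary gland no difference was called. It was the only gene of the 12 called higher in the liver than in each other tissue, beside 5.8% of all genes tested. Its liver mean of 55.1 FPKM was at percentile 96.1.

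The 17 beta-HSD 14 genes were found in all tissues, and none of their differences was called. The human enzyme oxidizes oestradiol. The gene dhb14 (chr3:75081632-75087782), 250999 bases from LOC106601563, stood at 5.33, 5.20, 6.19 and 8.25 CPM in the ovary, 2.02, 3.62, 3.17 and 2.17 CPM in the liver, 2.72, 1.24, 3.10 and 2.53 CPM in brain and 7.48, 6.75, 8.02 and 6.13 CPM in the pituitary gland. Ovary and pituitary libraries overlapped and lay above all liver and brain libraries. Ovary over brain reached 1.39 (SE 0.28, adjusted p = 0.000242) and brain over pituitary gland -1.57 (SE 0.28, adjusted p = 0.000211), both under the fold limit. LOC106606926 (chr6:25565133-25567898) stood at 5.79, 5.84, 5.28 and 5.92 CPM in the ovary, 8.17, 7.84, 9.33 and 6.26 CPM in the liver, 2.04, 1.51, 2.24 and 2.59 CPM in brain and 3.72, 3.58, 3.59 and 3.85 CPM in the pituitary gland. Its 4 tissues did not overlap, and the widest difference was liver over brain (1.92, SE 0.19, adjusted p = 2.48e-07). Per length, LOC106606926 was the higher of the pair in every ovary, liver and brain library, with a ratio of dhb14 to LOC106606926 between 0.153 and 0.862. In the pituitary gland the ratio was 1.24, 1.16, 1.38 and 0.983. In the ovary LOC106606926 was the highest of the 12 genes by FPKM, at 7.29. LOC106593760, a short 17 beta-HSD 14-like model on an unplaced scaffold, had no count.

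The genes of corticosteroid synthesis were near absent in these tissues. The steroid 21-hydroxylase gene LOC106606086 (chr5:76779111-76794490) had 16 counts in all, with 0 in each ovary library, 1, 0, 4 and 0 in the liver, 0, 2, 1 and 4 in the brain and 3, 1, 0 and 0 in the pituitary gland. The pair of CYP11B-like models, LOC106605739 on chromosome 5 and LOC106594167 on an unplaced scaffold, had no count in any library. The melanocortin receptor gene taken as the marker of interrenal tissue had 0 counts in every library. All 6 models on unplaced scaffolds were at 0, as was LOC106605739. Since only uniquely mapped reads were counted, a count of 0 in a model with a near-identical copy does not show that the gene was silent.

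Among the other 3 pairs of tissues fewer of these genes were called, as was so for all genes tested. The totals in either direction lay near the shares of all genes. Liver over brain had 3 genes higher and 1 lower, beside 32.9% of all genes tested, 10.8% higher and 22.1% lower. Liver over pituitary gland had 2 higher and 2 lower, beside 28.2%, 10.9% higher and 17.3% lower. Brain over pituitary gland had 2 lower, CYP17 and 3 beta-HSD, beside 15.7%, 10.7% higher and 4.91% lower. Higher in brain over pituitary gland were 0 genes by edgeR and 0 by DESeq2, with 1 at an unadjusted p under 0.05, the 5-alpha-reductase 2-like gene LOC106564819 (2.45, SE 0.76, adjusted p = 0.0124). Called higher in the brain than in each other tissue were 0 of the 12 genes by edgeR, DESeq2 or an unadjusted p under 0.05, beside 6.11% of all genes tested. The same counts of 0 held for the pituitary gland, beside 2.16%.

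Further genes that feed, support or drain the route were read from lists made by product name, 80 genes with 68 tested. In ovary over liver 14 were called higher and 20 lower, beside 22.3% and 18.5% of all genes tested. In ovary over brain 18 were called higher and 17 lower, beside 19% and 27.6%, and in ovary over pituitary gland 17 and 15, beside 18.9% and 22.3%. The counts of each list below are read against the same shares, and whether the lists differ from each other was not tested.

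The electron donors of steroid P450 enzymes held the most abundant ovary gene of these 6 lists. The cytochrome b5-like gene LOC106562087, of a family that aids the lyase reaction of CYP17 in mammals, averaged 398 CPM in the ovary, against 3.03 CPM in the liver, 5.47 CPM in brain and 3.46 CPM in the pituitary gland, and was called higher in the ovary in the 3 comparisons (log2 fold change 7.04, 6.19 and 6.85). Of the other cytochrome b5 genes, LOC106590088 averaged 6.46 CPM in the ovary and 305 CPM in the liver and was called lower in ovary over liver (-5.56, SE 0.24). LOC106578586 was called lower in ovary over liver (-2.32) and higher in ovary over brain (2.05). LOC106587180 was called in none of the 3 comparisons. Which of these genes serves CYP17 was not tested. Of the 14 tested genes of the electron donor list 3 were called higher and 6 lower in ovary over liver, 6 and 2 in ovary over brain and 4 and 3 in ovary over pituitary gland. Adrenodoxin passes electrons to P450scc. Which of the genes with adrenodoxin in their name serves P450scc was not tested. LOC106590059, named as a mitochondrial adrenodoxin-like protein, averaged 69.8 CPM in the ovary and 10.4 to 13.5 CPM elsewhere and was called higher in the 3 comparisons. LOC106564505, of the same name, averaged 57.9 CPM in the ovary and 8.73 to 14.6 CPM elsewhere. It was called higher over brain (2.42) and pituitary gland (2.73) and not over liver (1.99). LOC106575579, at 29.8 CPM in the ovary, was called higher over brain only (2.34). LOC106603406, under the level set for naming at 2.50 CPM in the ovary, was called higher in the 3 comparisons. Other adrenodoxin-like genes were not higher in the ovary. LOC106582038 averaged 0.194 CPM in the ovary, 22.5 CPM in the liver and 5.61 CPM in the pituitary gland and was called lower in the ovary against both (-6.82, SE 0.74, and -4.82, SE 0.70). LOC106575522, at 23.5 CPM in the ovary and 21.5 to 34.0 CPM elsewhere, was called in none of the 3. The P450 reductase-like gene LOC106580677 was a liver gene, at 4.26 CPM in the ovary and 315 CPM in the liver (-6.21, SE 0.20). The P450 reductase gene LOC106612446 averaged 79.7 CPM in the ovary, 199 CPM in the liver, 36.8 CPM in brain and 26.6 CPM in the pituitary gland. It was called in none of the 3 comparisons. LOC106567699, at 1.78 CPM in the ovary and 25.5 to 45.7 CPM elsewhere, was called lower in the 3. So was LOC106603436, which lay under the level set for naming.

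Several 17 beta-HSD genes that were not in the set by name were higher in the ovary. LOC106607392 and LOC106601030, both annotated as estradiol 17-beta-dehydrogenase 1-like, the type that makes oestradiol from oestrone, averaged 39.8 and 19.3 CPM in the ovary and at most 1.03 CPM elsewhere. The first had a log2 fold change of 5.26 over liver (SE 0.59), 5.71 over brain (SE 0.58) and 6.01 over pituitary gland (SE 0.59), and the second 6.06 (SE 0.44), 7.83 (SE 0.46) and 7.63 (SE 0.47), all called. The gene hsd17b12, which in mammals also elongates fatty acids, averaged 252 CPM in the ovary, 3.10 CPM in the liver, 11.4 CPM in brain and 14.1 CPM in the pituitary gland. The gene hsd17b3, of androgen synthesis in the mammalian testis, went the other way, at 0.0363 CPM in the ovary and 5.82 CPM in the brain. The gene dh12b, named as estradiol 17-beta-dehydrogenase 12-B, was present in all tissues. It averaged 238 CPM in the ovary, 90.0 CPM in the liver, 66.8 CPM in brain and 40.9 CPM in the pituitary gland. It was called higher in ovary over pituitary gland only (2.54). The genes hsd17b4, hsd17b8 and hsd17b10 were called in none of the 3 comparisons. Of the 15 tested genes of this list 4 were called higher and 1 lower in ovary over liver, 4 and 4 in ovary over brain and 5 and 3 in ovary over pituitary gland.

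Genes that handle stored and imported cholesterol were called in both directions, and those that make cholesterol were more often called lower than higher in the ovary. Of 11 tested delivery genes 2 were called higher and 2 lower in ovary over liver, 3 and 1 in ovary over brain and 5 and 1 in ovary over pituitary gland. Higher in all of these were soat1, which esterifies cholesterol for storage (61.4 CPM in the ovary, against 2.20 CPM in the liver, 11.9 CPM in brain and 12.3 CPM in the pituitary gland), and the hormone-sensitive lipase-like gene LOC106605704, of a family that releases cholesterol from its esters (100.2 CPM in the ovary, against 9.86, 15.9 and 15.2 CPM in liver, brain and pituitary gland). The translocator protein gene tspo was lower, at 3.49 CPM in the ovary and 112 CPM in the liver. The sterol O-acyltransferase 2-like gene LOC106566146 averaged 2.03 CPM in the ovary and 446 CPM in the liver and was called lower in ovary over liver (-7.77, SE 0.42). It was called higher over brain (3.01) and pituitary gland (3.66). The other hormone-sensitive lipase genes, lips, LOC106570130 and LOC106577399, were called in none of these comparisons. Of 10 cholesterol synthesis genes 5 were called lower in ovary over liver, 8 lower and 1 higher in ovary over brain and 4 lower and 1 higher in ovary over pituitary gland. Their median log2 fold changes were -2.15, -5.0 and -1.70. The squalene monooxygenase-like gene LOC106579093 averaged 0.934 CPM in the ovary and 62.6 CPM in the brain (-6.06, SE 0.63), and lss, the lanosterol synthase, 4.31 and 60.1 CPM (-3.80, SE 0.43). The gene hmdh, the HMG-CoA reductase at the control step of the pathway, was the 1 called higher in ovary over brain, at 52.8 CPM in the ovary and 13.1 CPM in the brain.

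Sulphotransferase genes, whose products conjugate steroids and other compounds, were low in the ovary. Of 5 tested genes 3 were called lower in ovary over liver, 2 in ovary over brain and 1 in ovary over pituitary gland. The gene st2b1 averaged 0.165 CPM in the ovary and 310 CPM in the liver (-10.84, SE 0.56), and st1s3 averaged 0.637 CPM in the ovary, 39.4 CPM in brain and 110 CPM in the pituitary gland.

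The regulators of the route were split between tissues by gene. The follicle stimulating hormone receptor gene fsh-r stood at 6.42, 8.14, 8.28 and 7.54 CPM in the ovary and 2.72, 2.39, 3.36 and 4.00 CPM in the pituitary gland, and at a mean of 0.132 CPM in the liver and 0.252 CPM in the brain. It was called higher in ovary over liver (5.81, SE 0.75) and over brain (4.98, SE 0.64). The steroidogenic factor 1-like gene LOC106570956, of the NR5A factors that act on steroid enzyme genes, was a pituitary gene, at 1.85, 1.90, 1.70 and 1.87 CPM in the ovary and 16.1, 21.3, 25.7 and 17.9 CPM in the pituitary gland (-3.47, SE 0.68, adjusted p = 0.000225). The NR5A2-like gene LOC106600931 was a liver gene, at 0.356 CPM in the ovary and 164 CPM in the liver. So were LOC106613481, at 1.15 and 84.9 CPM (-6.21, SE 0.65), and LOC106574163, at 0.0554 and 34.2 CPM (-9.18, SE 0.83). Both were called lower in ovary over liver. The remaining NR5A2-like genes, under the level set for naming and picked after their values were seen, were ovary genes. LOC106585443 averaged 4.96 CPM in the ovary and at most 0.0410 CPM elsewhere and was called higher over liver (7.58, SE 0.78), brain (6.92, SE 0.63) and pituitary gland (7.29, SE 0.67), and LOC106579988, at 3.95 CPM in the ovary, was called higher over liver and pituitary gland. Of the FOXL2 genes, LOC106613173 averaged 11.5 CPM in the ovary and 0.219 CPM in the liver (5.69, SE 0.70), while LOC101448029 averaged 8.96 CPM in the ovary, 15.1 CPM in brain and 10.3 CPM in the pituitary gland. Of the 13 tested regulators 5 were called higher and 3 lower in ovary over liver, 4 higher in ovary over brain and 2 higher and 3 lower in ovary over pituitary gland.

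**Figure D5:**
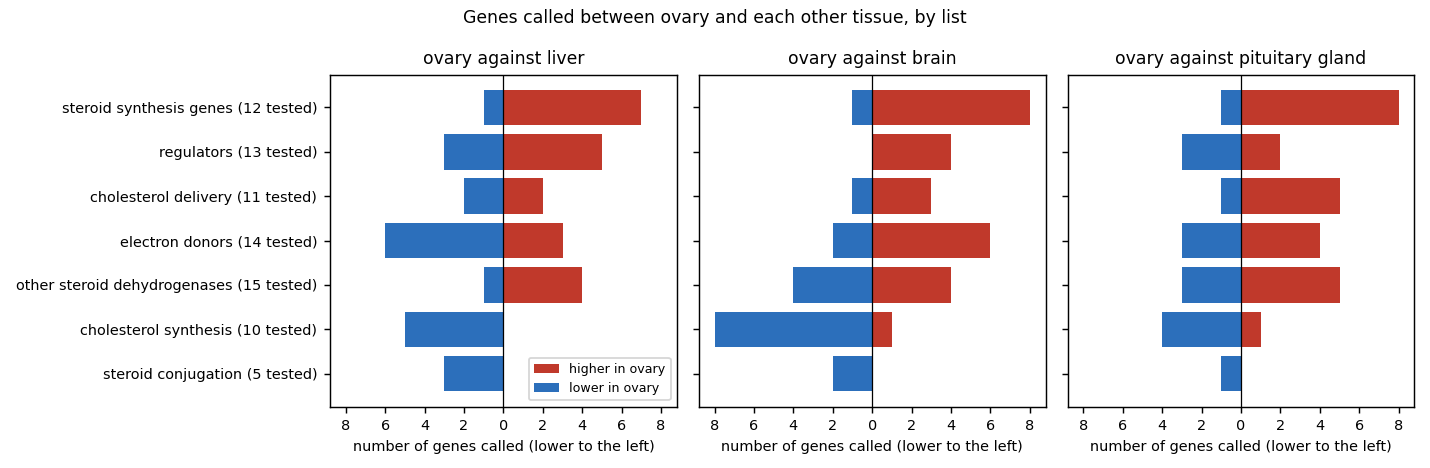
Number of genes called higher (red, right) or lower (blue, left) in ovary over liver, brain and pituitary gland, for the 12 tested steroid synthesis genes and 6 lists of further genes of the route. The steroid synthesis genes are mostly called higher in the ovary, with 7, 8 and 8 of 12, while 5, 8 and 4 of the 10 cholesterol synthesis genes are called lower.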

How the data were processed

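The mRNA of 16 tissue samples, 4 per tissue, was sequenced from a stranded library. The authors mapped the reads to ICSASG_v2 with TopHat2 and deposited raw counts of uniquely mapped reads on exons, made with HTSeq. The strand setting is not given in the sources used here. The deposited table of centered log2 values was not used. Chromosome numbers were assigned to the deposited annotation's sequences through gene identifiers shared with a RefSeq gene table of another assembly.

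Counts were analysed with edgeR 4.0.16 in R 4.3.3, with TMM factors, filterByExpr, and glmQLFit and glmQLFTest on all 16 libraries with 1 mean per tissue. P-values were adjusted by Benjamini-Hochberg over 37043 genes. The SE of a fold change was its size over the root of its F statistic. FPKM used merged exon lengths. The script was tested on simulated data. Count-based limits cover counting error only.

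Every gene of the set is accounted for. Those with a tissue mean of at least 5 CPM are given by library, and genes of the lists are named above the same limit, except where marked. Lists were made by product name and trimmed by name once the annotation was at hand. The genes, lists and tests were chosen with earlier results of these data known. Protein identity and promoter motifs were not analysed here.

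Alternatives were DESeq2 size factors, the DESeq2 1.42.0 Wald test, plain library totals, other filters, only the 2 tissues compared, a replicate block and leaving out each library. Between liver and pituitary gland, libraries with the same number deviated together (correlations 0.125, 0.226, 0.134 and 0.182). The values given for liver over pituitary gland still come from the fit without the block. The block changed no call of a steroid synthesis gene in that comparison. No replicate pair agreed within sampling noise. The p-values treat the 16 libraries as independent although tissues share fish.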

Additional observations from a re-analysis of the deposited data

Results flagged for a closer look

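Of 39 groups of 4 libraries tested for a library far from the others, 1 was found. Chance gives about 1 in 20 groups for values without ties, which does not hold for the group found. The side-chain cleavage gene LOC106561846 stood at 0.124 CPM in brain replicate 2, from 9 counts, and had 0 counts in the other 3 brain libraries. With those 3 tied at 0, any count in replicate 2 would have been flagged. That library was also the deepest of the brain, at 51.9 M counts. Without it every brain library was at 0 and the call of ovary over brain was kept (edgeR, adjusted p = 1.45e-06).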

How the results depend on the processing

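The calls of StAR, 3 beta-HSD, LOC106564819 and both aromatase-like genes in the ovary over each other tissue held under every alternative run. Those of P450scc and CYP17 that were lost stand here or beside their results. In all, 1574 of the recomputed values kept direction and side of the limits, while 32 lost a call, 7 gained one and 24 changed sign. Leaving out each library gave 6 to 8 genes called in a single tissue, 7 to 8 in ovary over liver, 8 to 9 over brain and 7 to 9 over pituitary gland, 4 to 5 in liver over brain, 4 in liver over pituitary gland and 2 in brain over pituitary gland. The last count was 1 with plain library totals and 1 with only the 2 tissues compared, where CYP17 missed the p limit (adjusted p = 0.00114) and, with plain totals, 3 beta-HSD the fold limit (-1.94).

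Plain library totals ignore composition and moved the median of all genes to 1.82 in ovary over liver (0.38 with TMM), 0.57 in ovary over pituitary gland (0.04), -1.61 in liver over brain (-0.22), -1.11 in liver over pituitary gland (-0.17) and 0.50 in brain over pituitary gland (0.05). The share of calls that were higher in the first tissue moved to 81.2% (54.6%), 58.7% (45.9%), 12.3% (32.8%), 20.9% (38.6%) and 80% (68.6%). Signs turned with plain totals for LOC106606926 (1.02) and LOC106584746 (0.0619) in ovary over liver. They turned for LOC106601563 (0.13) and dhb14 (0.35) in ovary over pituitary gland. In liver over brain they turned for LOC106561846 (-1.24), LOC106562534 (-0.60), LOC106577426 (-0.68), LOC106587170 (-0.52) and dhb14 (-1.19), in liver over pituitary gland for LOC106577426 (-0.10) and LOC106587170 (-0.42), and in brain over pituitary gland for LOC106587170 (0.10). None of these differences had been called. With plain totals dhb14 passed the limits in ovary over liver (2.67) and liver over pituitary gland (-2.33). DESeq2 size factors turned LOC106561846 in liver over brain (-0.0147) and ended its call in ovary over pituitary gland (adjusted p = 0.00126, and 0.00163 with no filter) and that of s5a2 in ovary over brain (0.00109).

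Leaving out a library turned uncalled values near 0, with ranges of -0.50 to 3.43 for LOC106561846 and -0.021 to 0.33 for dhb14 in liver over brain, and of -0.30 to 1.48 for LOC106577426, -0.60 to 0.0387 for LOC106587170 and -0.0159 to 0.21 for LOC106601563 in brain over pituitary gland. Without liver replicate 4 (2.02) or brain replicate 4 (2.03) LOC106606926 passed the limits in liver over brain.

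The replicate block gave 9 calls in ovary over liver in place of 8, by s5a2 (-2.54), 9 genes called in a single tissue in place of 8, and changed no other call of a steroid synthesis gene. Outside liver and pituitary gland not every correlation of same-numbered libraries was over 0.1, and the labels do not say whether a number marks a fish. Of 24 tissue pairs of same-numbered libraries 9 had correlated deviations over 0.1 (range -0.0166 to 0.226), and 20 matched their own number best, which is a hint from the data and not from the design. The depth limits the genes under about 10 counts per library, where sizes of fold changes depend on the prior count.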
